A study of Mus musculus with 9 samples.

Results

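Mouse retinal organoids that lack Bhlhb4 were set against wild type organoids at matched differentiation days, using the single-colour microarray probes that both lines expressed throughout. Retinal organoids are floating aggregates of stem cells that build a layered retina in the dish, here from mouse ES or iPS cells by the SFEBq method. The comparison took 6 of the 9 samples of the study: Bhlhb4 knockout organoids (B4KO) and wild type organoids (WT, also named NCT in the labels), collected after 10, 16 and 23 days of differentiation (written DD10, DD16 and DD23). The other 3 samples, Islet-1 knockout organoids (Isl1KO) of the same days, entered the statistical model to share its estimate of spread, and their values stand beside those of B4KO below. Every sample pooled 5 organoids, and the labels name no other allele and no drug. The labels give neither the number of clones or cultures behind a line nor the part of Bhlhb4 that was removed. Each line was therefore measured once per day. A p-value here reflects only how steady the differences between lines were over the 3 days, with Isl1KO included in that spread. In pooled organoids, fewer cells of a type and less RNA per cell cannot be told apart. Of 56503 probes, 28634 were well above background on all 6 arrays and were tested. They stood for 18736 genes, of which 6539 had at least 2 such probes.

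Bhlhb4, now named Bhlhe23, is a basic helix-loop-helix transcription factor of rod bipolar cells and some amacrine cells, and mice without it lose rod bipolar cells as the retina matures. Bipolar cells are the interneurons that pass signals from photoreceptors to amacrine and ganglion cells, and they are born late, together with rods and Mueller glia. The study engineered its lines to obtain organoids with fewer bipolar cells, so the comparison asks how gene expression differed once Bhlhb4 was missing.

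The arrays of B4KO were alone on 1 slide, while those of WT and Isl1KO shared the other, so slide and line cannot be told apart in anything below. Between 58.2% and 60.5% of the gene spots were well above background on the B4KO arrays, and between 57.3% and 65.6% on the WT arrays. The 75th percentile of the processed intensity, to which each array was scaled, lay between 897 and 1079 in B4KO and between 940 and 1134 in WT. All signals below are log2 values relative to that percentile, so 0 is the 75th percentile of the array. RNA spiked in at known amounts was slightly higher in B4KO where it was bright: 7 such spike-ins had B4KO minus WT values of 0.02 to 0.22 (median 0.13). A dim one, E1A_r60_a107, gave -4.53, -4.28 and -4.23 in B4KO and -3.86, -3.76 and -3.18 in WT at DD10, DD16 and DD23, a mean difference of -0.75. The 2 spike-ins dimmer still had no spot well above background on at least 1 array, and mean differences of -0.13. The bright control spots at the corners of the array stood at 11.9 to 15.2 times the 75th percentile on the B4KO slide, against 20.7 to 34.0 times on Isl1KO arrays and 24.7 to 32.8 times on WT arrays. A further 15 probes (0.0265%) were well above background on all 3 B4KO arrays and no WT array, and 225 (0.398%) on all 3 WT arrays and no B4KO array.

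General retinal factors were present in both lines. Otx2, which directs photoreceptor and bipolar fate, had signals of 2.11, 2.98 and 3.77 in B4KO and 2.25, 2.84 and 3.48 in WT over the 3 days. Bhlhe23 itself has 1 probe on the array (chr2:180509639-180509698, minus strand, build mm9), and it was dim. Its signal was -3.41, -4.88 and -6.64 in B4KO, -2.95, -4.55 and -6.56 in Isl1KO, and -3.20, -2.82 and -4.55 in WT. It was well above background on 1 of the 3 arrays in B4KO, on 2 in Isl1KO and on 3 in WT, so it did not enter the tests. At DD16 and DD23 B4KO and Isl1KO lay nearer to each other than to WT. Since the labels do not say what was deleted, the probe may lie outside it and then checks nothing.

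Differences between B4KO and WT followed the letters of the probe as well as its gene, and probes with and without the features concerned are shown first for that reason. Each line gives 30 of the 60 bases of a probe, 5′ to 3′, as the array design lists them. Capitals mark a C tract (a stretch of 6 bases with 5 or more C), a 2-base repeat of at least 10 bases, or a shared word, that is, a run of 12 letters held by 10 or more probes of the array. A probe in lower case throughout holds none of the 3 in this window.
Pkib, probe 1: aaatgctagtGAGATGGCTCAGtgggtaag
Pkib, probe 2: tgtgtcctgtgctggggatgcttttgtgat
Cdcp1, probe 1: cagaaatccaGCTACACAGAGAAACCCTtt
Cdcp1, probe 2: aacaggatcaAGAGAGAGAGAGtctgcaag
Cd244a, probe 1: tgCACAGAGAAACCCTGTCTCAAtccctaa
Cd244a, probe 2: caatgaccCATAAAATAAAATAAAccattt
Mlxipl, probe 1: taCTACACAGAGAAACCCTGTCTCAAAAAA
Tdgf1, probe 1: ggagaaaaaAGAGAGAGAGAGAagaaaaac
Tdgf1, probe 2: cctaatgttaCCCCTCaaaacactaactag
Wipf3, probe 1: gCACACACACACAatctcactaacaacgaa
Trpm1, probe 1: tgaACCCCCAgccaaaggcaagaagaaaaa
Trpm1, probe 2: acgagagtctatcagaccatgtccaaccct
Zfp600, probe 1: tacatatatagtgaaagtgacaaatgcttt
Ly6g6c, probe 1: ataagctgggcctgaactacaacaccacct
Arl3, probe 1: taattgacagtgccgacagaaagagatttg
Arl3, probe 2: actgatctcagaggctcggtatcgtttttc

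The first probe of Pkib, Cdcp1, Cd244a and Mlxipl holds a shared word, and those of Cdcp1, Cd244a and Mlxipl spell overlapping runs of the same letters. Such runs are known from B1 elements, short interspersed repeats that are scattered through the mouse genome and its transcripts, and the run in Pkib is known from B2 elements of the same kind. Cdcp1 probe 1 (chr9:123081403-123081462, minus strand, mm9) had the lowest value of these, -2.08 (SE 0.10), and its most common word was held by 29 probes. Pkib probe 1 (chr10:57436501-57436560, plus strand) had -1.76 (SE 0.11), with a word held by 11 probes. The probe of Mlxipl (chr5:135598483-135599113, plus strand, spanning a splice) had -1.69 (SE 0.12). Its word was held by 23 probes. Pkib probe 2 (chr10:57460814-57460873, plus strand) carries no such run and still had -1.48 (SE 0.09).

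Trpm1, the cation channel of ON bipolar cells that pigment cells also express, shows how far probes of 1 gene could part. Probe 1, with the C tract (chr7:71371607-71371666, plus strand), had -1.40 (SE 0.21, adjusted p = 0.00384, limma). It also holds a word held by 34 probes, and only the tract is capitalized above. The other 5 probes of Trpm1 had values between -0.15 and 0.26, and none of them passed. Averaged over its 6 probes, Trpm1 had a signal of 1.60, -0.23 and -1.38 in B4KO and 2.03, -0.29 and -1.24 in WT. That mean takes in probe 1, which had differences of -1.31, -0.80 and -2.09 at DD10, DD16 and DD23. The other 5 probes had -0.47 to 0.15 at DD10. At DD23 all 5 were higher in B4KO, by 0.10 to 0.58.

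Over all tested probes, 1747 had higher signal in B4KO (6.1%) and 3756 had lower signal (13.1%) at a Benjamini-Hochberg adjusted p below 0.05 in limma. The median difference over all of them was 0.06, a little above 0 on each day (0.05, 0.04 and 0.07). The balance shifted with brightness. With the probes split by signal into 5 equal groups, the median of the dimmest 5727 was -0.10, with 2.53% higher and 22.3% lower. The median of the brightest 5727 was 0.12, with 10.5% higher and 8.54% lower. The dimmest group leaned down and the brightest leaned up on all 3 days. For this reason each difference was also taken relative to the median of probes of similar brightness, called the brightness-centred value below.

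**Figure D1:**
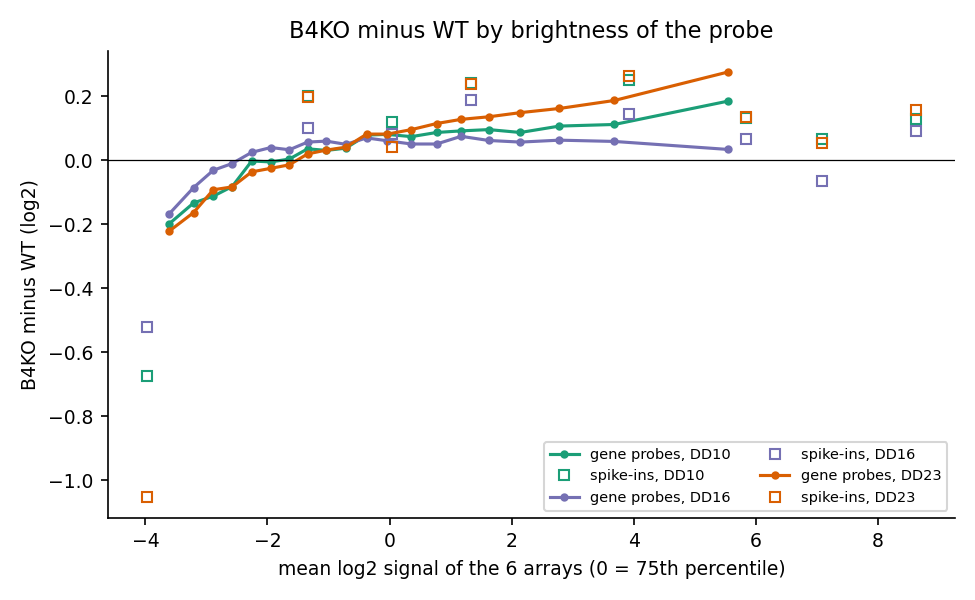
B4KO minus WT (log2) against the mean log2 signal of the probe over the 6 arrays, for each day. Filled points joined by lines are medians of 20 groups of gene probes of similar brightness, and open squares are the 8 spike-in RNAs with signal above -5. The lines start below 0 at the dim end and lie above 0 for bright probes on all 3 days, and the spike-in E1A_r60_a107 lies at -0.67, -0.52 and -1.05.

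Of 2964 tested probes with a C tract, 36.6% were lower in B4KO and 5.36% were higher, with a median difference of -0.15. Of 322 probes with a 2-base repeat, 67.7% were lower and 2.17% higher, with a median of -0.50. Of 1019 probes with a shared word only, 27.2% were lower and 3.44% higher. Among the other 24329 probes 8.94% were lower and 6.36% higher, and their median was 0.07. Isl1KO minus WT, which uses the same WT arrays, had medians of 0.03, 0.01 and -0.01 for the first 3 groups and 0.01 for the last. The split held within each of the 5 groups of brightness. In the brightest group 72.5% of the repeat probes and 20.5% of the C tract probes were lower in B4KO, against 3.88% of the probes with none of the features. The choice of features was made after the values were seen, so these shares describe the arrays and are not a test.

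Probes whose most common 12-letter word was held by 5 or more probes of the array were lower in B4KO more often as that number grew, while below 5 no such order was seen. The share that was lower was 12.1% where the word was on 1 or 2 probes, 10.8% on 3 or 4, 14.7% on 5 to 9, 25.3% on 10 to 19, 39.7% on 20 to 49 and 87.0% on 50 or more. The last group, 169 probes, was bright (median signal 3.02) and had a median difference of -0.56. All of that group held a C tract or 2-base repeat, so it overlaps with the features above. Among probes with neither, 21.3% were lower on 10 to 19 and 38.5% on 20 to 49. Of 34 words held by at least 20 tested probes, 30 had a median below 0. The word GAAGAAGAAGAA was on 28 probes of 28 genes, with a median of -0.95, and ACACACACACAC was on 57 probes of 57 genes with a median of -0.63. No gene held either word more than once among the tested probes. The word GGTAAAGCCTTT, on 22 probes of which 7 are named for Zfp genes, spells part of the finger of C2H2 zinc finger proteins, a large family. Its median was -0.60 and 19 of the 22 were lower. GC content moved with the same share: of 795 probes with over 55% G and C, 48.4% were lower. The part of probe sequence in any single difference was not tested beyond these shares and the fits that left such probes out, given below.

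**Figure D2:**
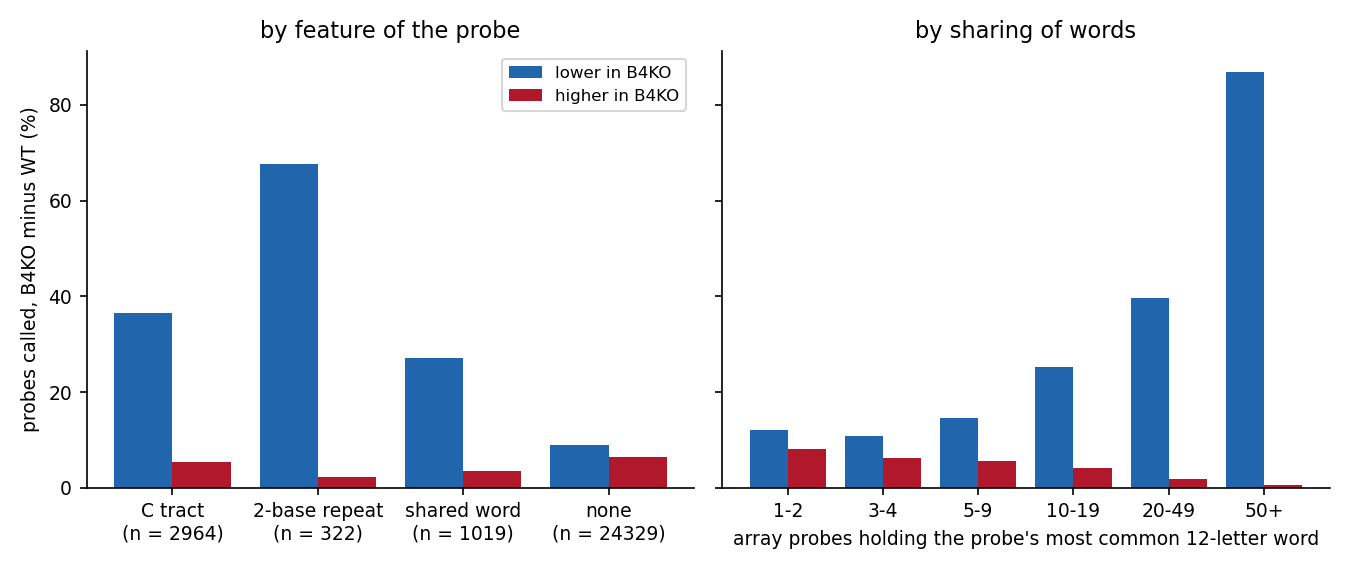
Share of tested probes (%) lower (blue) and higher (red) in B4KO than in WT, by feature of the probe on the left and by how many probes of the array hold its most common 12-letter word on the right. The lower share is 67.7% for 2-base repeats and 8.94% for probes with no feature. It reaches 87.0% where 50 or more probes share the word, a group in which every probe holds a C tract or 2-base repeat.

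Genes were called only where at least 2 probes passed in the same direction and none passed in the other. That left 118 genes higher in B4KO (1.8% of 6539) and 99 lower (1.51%). The agreement between probes was low. Among 4267 genes with exactly 2 probes, the probes' differences correlated at Pearson's r of 0.29 across genes, which are not independent replicates. Of 613 such genes with a lower probe, 54 had both lower, and of 583 with a higher probe, 63 had both higher. In 29 genes the probes passed in opposite directions, and in 94 the probes overlapped on the genome.

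The called rises and falls differed in size and in the probes behind them. The 118 rises were modest, with a median of 0.36, and none reached 2-fold. Their median signal was 0.75, and 28 of them (23.7%) had a probe with a C tract, repeat or shared word, near the 26.9% of all 6539 genes. The 99 falls had a median of -0.67 and 15 reached 2-fold. Their median signal was -1.17, and 72 of them (72.7%) had such a probe. Relative to probes of similar brightness 31 of the rises and 87 of the falls were still called. The signals of B4KO and WT did not overlap, whatever the day, in 33 of the rises and 77 of the falls, while 701 of all 6539 genes (10.7%) showed this.

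Removing the marked probes from the fit left 24329 probes, on which 49 genes rose and 23 fell. Of these, 48 and 22 were among the calls above. The rises also depended on single arrays. Their number was 19 without B4KO at DD10, 59 without B4KO at DD16, 14 without B4KO at DD23, 10 without WT at DD10, 94 without WT at DD16 and 22 without WT at DD23. Falls numbered between 68 and 145 in the same 6 fits. With a whole day left out in all lines, 12 genes rose and 57 fell without DD10, 22 and 81 without DD16, and 3 and 54 without DD23.

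The genes that rose most are given next, with 3 neighbours on chromosome 19 held for a later paragraph. Onecut1, a transcription factor of horizontal cells and young ganglion cells, had signals of 2.17, 2.60 and 1.93 in B4KO and 0.63, 2.27 and 1.40 in WT at DD10, DD16 and DD23. It was higher in B4KO on all 3 days, most at DD10, although the ranges of the lines overlapped. Its mean difference was 0.80 (probe SE 0.20 and 0.23, adjusted p = 0.0414 and 0.0386, limma), it did not pass relative to probes of similar brightness, and the call was lost in 4 of 6 fits that left out 1 array (DD10 or DD23 of either line). Isl1KO minus WT gave 0.51 for Onecut1.

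Dkk3, a secreted Dickkopf protein of retinal progenitors and Mueller glia, had 3.41, 4.51 and 3.57 in B4KO and 2.14, 4.34 and 2.76 in WT. It was well apart at DD10 and DD23 and close at DD16. Its mean difference was 0.75 over 3 probes, 2 of which passed (adjusted p = 0.0235 and 0.0249, limma), and without DD10 or DD23 of either line it was not called. Cp, the ferroxidase ceruloplasmin, had a similar course, with -0.83, -0.33 and -0.43 in B4KO and -2.10, -0.52 and -0.91 in WT. Cp passed by 2 of 4 probes (mean 0.64), not relative to probes of similar brightness, and not without DD10 or DD23 of either line. Isl1KO minus WT had values of 0.39 for Dkk3 and 0.56 for Cp, from the same WT arrays.

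A steadier rise was seen for Papln, while Gprc5b was higher on each day but less steady. Papln, the extracellular matrix protein papilin, had -2.24, -1.66 and -1.70 in B4KO and -3.01, -2.51 and -2.29 in WT, with no overlap between the lines. Its mean difference was 0.74 (probe SE 0.08 and 0.13, adjusted p = 0.0017 and 0.00446, limma) and it was called with any 1 array left out, but its 2 probes overlap on the genome and count as 1 reading. Gprc5b, an orphan G protein-coupled receptor of neural tissue, had 0.64, 0.66 and 0.17 in B4KO and 0.26, 0.18 and -0.65 in WT (mean 0.56). The lines overlapped over the days for Gprc5b, and it was called in 2 of 6 fits without 1 array.

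Fzd4, Ttll4 and Pola2 were also among the 12 leading rises, as were the chromosome 19 genes below. Fzd4, the Wnt receptor that also binds norrin in retinal vessel growth, had a mean of 0.51, Ttll4, a tubulin polyglutamylase, 0.55, and Pola2, a subunit of the DNA polymerase that primes replication, 0.55. Each was higher in B4KO on every day, with ranges that overlapped between the lines over the days. Fzd4 did not pass relative to probes of similar brightness and was called in 1 of 6 fits without 1 array, Ttll4 in 0 and Pola2 in 2.

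The genes that fell most had larger and more even differences than those that rose. Pkib, an inhibitor of cAMP-dependent protein kinase, had signals of 0.17, 0.10 and -0.12 in B4KO and 1.82, 1.68 and 1.51 in WT. The lines were about 3-fold apart on each day and did not overlap. Its mean difference was -1.62 (probe SE 0.09 and 0.11, adjusted p = 0.00012 and 0.000118, limma). Isl1KO minus WT was 0.02 for Pkib.

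Zfp600, a zinc finger gene of a family with many near-identical copies, had -3.84, -3.70 and -3.45 in B4KO and -2.43, -2.32 and -2.09 in WT. All 3 of its probes were lower, by -1.94, -1.13 and -1.07, although the last 2 overlap, and copies could share its signal. Ly6g6c, a membrane-anchored Ly6 protein, had -2.53, -2.52 and -2.66 in B4KO and -1.34, -1.13 and -1.41 in WT (mean -1.27, probe SE 0.09 and 0.10, adjusted p = 0.000101 and 0.000512, limma). Tex44, a gene best known from testis, had -2.87, -2.82 and -2.54 in B4KO and -2.01, -1.80 and -1.46 in WT (mean -0.99). None of the probes of Zfp600, Ly6g6c and Tex44 held a C tract, repeat or shared word. These 3 and Copg2os2 were the only ones of the 12 leading falls still called without marked probes. The other 8 then had fewer than 2 probes left. Unmarked probes were not free of related letters. The most common words of the Zfp600 probes were held by 7, 9 and 9 probes, under the limit of 10. A probe of Ly6g6c and a probe of Tex44 hold the run CCCC. Of all tested probes with CCCC 29.3% were lower, against 10.8% of those without it.

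Copg2os2, an RNA named as antisense to Copg2, differed by day. It had -2.67, -1.64 and -1.49 in B4KO and -1.80, -1.09 and 0.13 in WT, so the lines overlapped and were furthest apart at DD23. Its mean difference was -1.01 (adjusted p = 0.024 and 0.0295, limma), it was called in 2 of 6 fits without 1 array (not without any B4KO array or WT at DD10), and Isl1KO minus WT was -0.63.

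Several falls were in genes best known outside the retina. Tdgf1, the Nodal co-receptor Cripto of pluripotent cells, had -1.16, -1.04 and -1.09 in B4KO and -0.11, -0.27 and 0.15 in WT. Hoxb3, a patterning gene of the hindbrain, had -3.30, -3.17 and -3.19 in B4KO and -2.18, -1.85 and -2.02 in WT. Cd244a, a receptor of natural killer cells, had 0.48, 0.63 and 0.63 in B4KO and 1.65, 1.67 and 2.06 in WT. For none of the 3 did the lines overlap, and each gene had at least 1 marked probe: both of Tdgf1 and Cd244a, and 1 of 2 in Hoxb3. Cdcp1, a transmembrane CUB-domain protein (mean -1.55), and Cyp4f18, a leukotriene hydroxylase (mean -1.01), likewise rested on marked probes only, and the 2 probes of Cyp4f18 lie 1 base apart.

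Ajm1, an apical junction component, had a mean of -1.03, and Rasgrp1, a Ras activator of lymphocytes and neurons, -1.05. For Ajm1 the lines overlapped over the days, Isl1KO minus WT was -0.45, and B4KO minus Isl1KO was not called. Of its 2 probes 1 held a C tract. The unmarked one had -0.90 in B4KO minus WT and -0.74 in Isl1KO minus WT. Rasgrp1 had -3.27, -3.34 and -3.82 in B4KO, -3.39, -3.16 and -3.73 in Isl1KO and -1.88, -2.44 and -2.96 in WT. Here both knockouts lay below WT on every day. The Isl1KO difference was -1.001 (lowest adjusted p = 0.248, limma), and B4KO minus Isl1KO was -0.05. The call for Rasgrp1 was lost without B4KO at DD10.

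**Figure D3:**
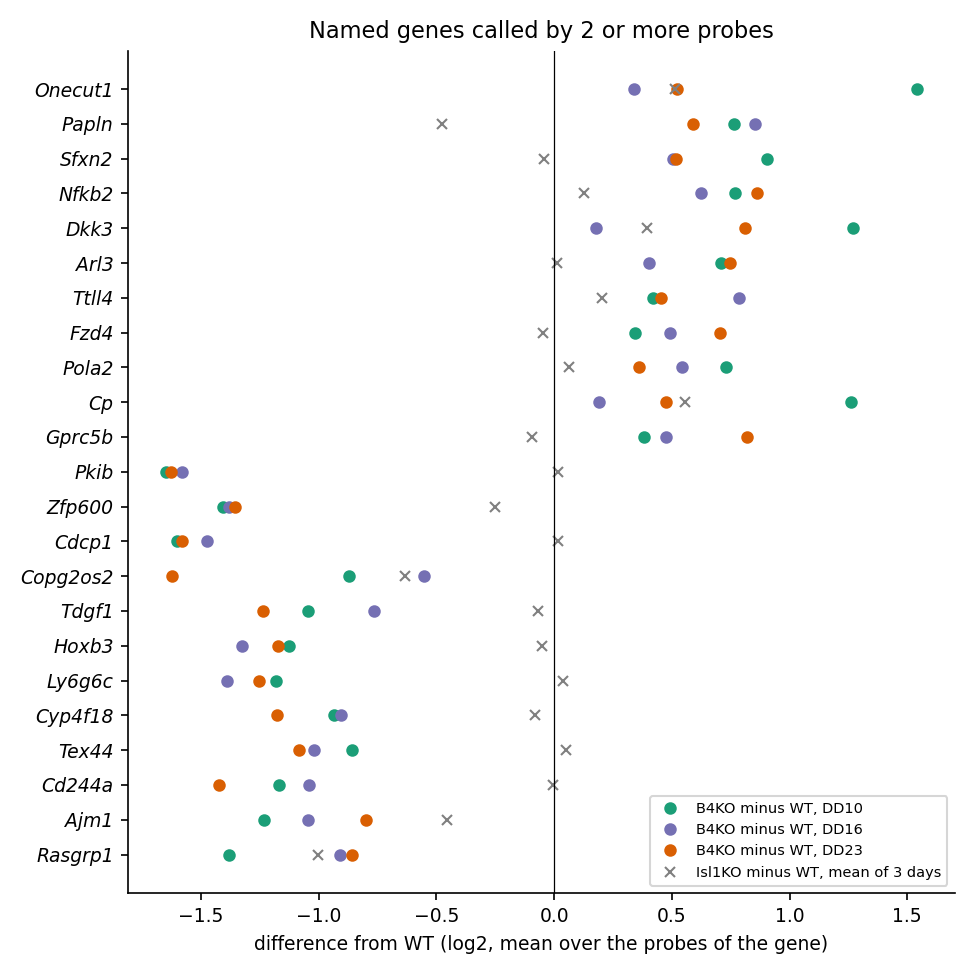
Difference from WT (log2, mean over the probes of the gene) for leading rises and the 12 leading falls, with 1 coloured point per day for B4KO minus WT and a grey cross for Isl1KO minus WT averaged over the days. The 3 B4KO points of Pkib lie between -1.65 and -1.58, while those of Onecut1 run between 0.34 and 1.54.

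Against Isl1KO, which was on the other slide with WT, 1436 probes were higher in B4KO (5.02%) and 3692 lower (12.9%), which gave 94 genes higher (1.44%) and 97 lower (1.48%). This comparison shares the B4KO arrays with the one above. Isl1KO minus WT, within the other slide, called 2 probes of 28634 (0.00698%). Among the leading genes the B4KO minus Isl1KO values were -1.63 for Pkib, -1.31 for Ly6g6c, 1.21 for Papln, 0.61 for Arl3 and 0.65 for Gprc5b, all called. They were 0.29 for Onecut1, 0.36 for Dkk3 and 0.09 for Cp, none of which passed.

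Of the 118 genes that rose, 7 were on chromosome 19 (5.93%), which holds 2.95% of the genes tested. Arl3, Sfxn2 and Nfkb2 lie within a stretch of 390 kb there, chr19:46386146-46776359 in mm9. Arl3, a small GTPase that releases lipid-anchored proteins into cilia, including those of photoreceptors, had 4.56, 4.26 and 4.32 in B4KO and 3.85, 3.86 and 3.58 in WT. Its lines did not overlap, and its mean difference was 0.62 (probe SE 0.10 and 0.08, adjusted p = 0.00292 and 0.00394, limma). Nfkb2, the p100 subunit of NF-kappaB, had -0.65, -0.70 and -0.65 in B4KO and -1.42, -1.33 and -1.52 in WT, again with no overlap (mean 0.75, adjusted p = 0.00121 and 0.0098, limma). Sfxn2, a mitochondrial sideroflexin, had 0.34, -0.47 and -0.66 in B4KO and -0.56, -0.97 and -1.17 in WT (mean 0.64), higher in B4KO on each day. Arl3 and Nfkb2 were called with any 1 array left out, but Nfkb2 not without DD16 or DD23 in all lines and Arl3 not without DD23. Sfxn2 was not called without B4KO at DD10, DD16 or DD23. Of the 2 probes of Nfkb2 1 holds a C tract, and without marked probes Arl3 and Sfxn2 were still called but Nfkb2 was not.

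The neighbours of these genes were examined because they lay together, so what follows was chosen after the values were seen and is a description. Between Nfkb2 and Borcs7 there were 20 tested probes of 14 genes, of which 15 were higher in B4KO and 2 lower. Their median difference was 0.60, or 1.51-fold (0.57, 0.48 and 0.62 at the 3 days), and 16 of the 20 lay between 0.4 and 0.9. Relative to probes of similar brightness the median was 0.52. Isl1KO minus WT, with the same WT arrays, had a median of -0.03 over the same probes. Actr1a, the dynactin subunit centractin, had 0.75 (SE 0.07), with 0.72, 0.72 and 0.82 over the days. Wbp1l had 0.68 (SE 0.07), Cuedc2 0.50 (SE 0.07) and Borcs7, a subunit of the BORC complex on lysosomes, 0.60 (SE 0.12). Sufu, the inhibitor of Hedgehog signalling, had 0.55 (SE 0.18) and 0.50 (SE 0.09) with its probes.

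The exceptions inside the stretch were few. Cyp17a1, an enzyme of steroid synthesis, had -0.89 (SE 0.13) with a probe that holds a C tract. Trim8, a ubiquitin ligase, had 0.61 (SE 0.07) with one probe and -0.49 (SE 0.09) with the next one along, so its probes disagreed. The 2 probes of Psd, a brain exchange factor for ARF6, had 0.29 (SE 0.15) and -0.04 (SE 0.17). Both hold a C tract. A C tract was also held by a probe of Nfkb2 that was higher, at 0.625 (SE 0.12), and neither probe of Trim8 was marked.

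Outside the stretch the values dropped within the same chromosome. In the 800 kb before Nfkb2, the median of 29 probes was 0.10 (1 higher, 1 lower). In the 800 kb after Borcs7, that of 18 probes was 0.22 (2 higher, 0 lower). Over the other 810 probes of chromosome 19 it was 0.09 (59 higher, 87 lower). Among 442 windows of 1 Mb with at least 20 probes, the one that begins at 46 Mb of chromosome 19 had the highest brightness-centred median, 0.29 over 38 probes, and the next had 0.18. Across the processing alternatives the median of the stretch stayed between 0.52 and 0.63.

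**Figure D4:**
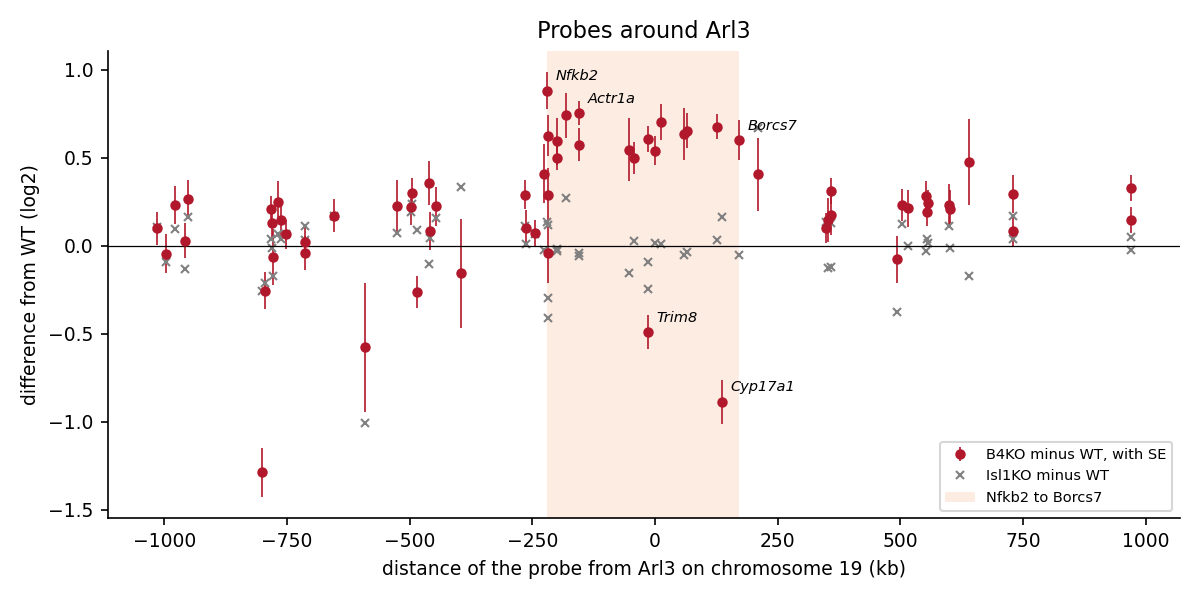
Difference from WT (log2) of each tested probe against its distance from the Arl3 probe on chromosome 19 (kb). Red points with SE bars are B4KO minus WT, grey crosses are Isl1KO minus WT, and the shaded span runs from Nfkb2 to Borcs7. Most red points in the span lie between 0.4 and 0.9, apart from Psd, Trim8 and Cyp17a1, while the flanks have medians of 0.10 and 0.22.

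Bipolar cell genes, the class the knockout was meant to reduce, held no gene that 2 of its own probes called. Few had the 2 tested probes needed: 6 rod and ON cone genes, 2 OFF cone genes, 1 shared gene and 3 fate factors. Of all 6539 genes with 2 or more tested probes, 1.8% were called higher and 1.51% lower, so this absence says little. Of 20 genes listed for rod and ON cone bipolar cells, 13 had a tested probe. Of their 29 probes 0 were higher and 1 was lower, the C tract probe of Trpm1, against 6.1% and 13.1% of all probes, and the list's median was -0.05, against 0.06 over all probes. Pcp2, a modulator of G protein signalling in rod and ON bipolar cells, had -2.78, 3.20 and 4.38 in B4KO and -1.95, 2.70 and 4.04 in WT. Its value was lower in B4KO at DD10 and higher at DD16 and DD23, with a mean of -0.001 (adjusted p = 0.999, limma). Gng13, the G protein gamma subunit of ON bipolar cells, had -2.65, 0.12 and 2.95 in B4KO and -3.45, -0.21 and 2.64 in WT (mean 0.48, SE 0.14, adjusted p = 0.0566, limma).

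Prkca, the protein kinase C alpha that marks rod bipolar cells, had -1.81, -0.34 and 0.66 in B4KO and -1.02, -0.25 and 0.60 in WT. The lines were apart at DD10 and near each other later (mean -0.28, lowest adjusted p = 0.206, limma). Cabp5, a calcium-binding protein of rod bipolar and some cone bipolar cells, had 4.75, 4.52 and 4.74 in B4KO and 5.04, 4.61 and 5.46 in WT (mean -0.37, adjusted p = 0.102, limma), read by 1 probe that holds a marked feature. The glutamate receptor gene Grm6 and the cone bipolar factor Vsx1 had no probe that passed the filter and were not tested.

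Among 12 tested genes of OFF cone bipolar cells, 5 of 14 probes were lower and 0 higher, where 13.1% and 6.1% of all probes were, and their median was -0.37. Syt2, a synaptotagmin of type 2 OFF bipolar terminals, had differences of -1.01, -0.98 and -1.01 at the 3 days (mean -1.0, SE 0.07, adjusted p = 0.000154, limma). Erbb4 (-0.98), Grik1, a kainate receptor subunit (-0.95), and the LIM factor Lhx3 (-0.64) also passed. Each of the 4 had a single tested probe, those of Erbb4 and Grik1 held a marked feature, and Neto1 passed by 1 of 2 probes (mean -0.61). Only 2 genes of this list had 2 or more tested probes, and no gene was called by 2. Isl1KO minus WT lay between -0.04 and 0.15 for Syt2, Erbb4, Grik1 and Lhx3. Genes shared by bipolar types had 0 higher and 0 lower of 11 probes (median 0.04), and factors of bipolar fate 0 and 1 of 18 (median 0.17).

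Photoreceptor genes were likewise called by single probes only. Of 8 probes of rod genes 0 were higher and 2 lower, of 9 probes of cone genes 0 and 1, and of 24 probes of genes shared by both 0 and 4. The medians of the 3 lists were -0.20, 0.11 and 0.08 in the same order. Over all probes 6.1% were higher and 13.1% lower, so the count of lower probes among these 3 lists was near the background. Cnga1 and Cngb1, the subunits of the rod cyclic nucleotide-gated channel, had -0.73 (SE 0.08, adjusted p = 0.000563) and -0.68 (SE 0.08, adjusted p = 0.00128) in limma, and Cnga3, its cone counterpart, -0.80 (SE 0.08, adjusted p = 0.000399, limma, C tract, repeat or shared word in the probe). Tulp1, a transport protein of photoreceptors, had -1.12 and Rdh12, a retinol dehydrogenase of the outer retina, -0.90, both read by 1 marked probe. Other members of these lists had positive values that did not pass, among them Kcne2 (0.49), Pdc (0.35), Cdhr1 (0.34) and Rom1 (0.16). No photoreceptor gene was called by 2 probes, but only 1 rod gene, 1 cone gene and 6 genes shared by both had 2 or more. Crx, the factor that drives photoreceptor genes, had -0.22, 3.27 and 4.81 in B4KO and -1.41, 3.15 and 4.51 in WT. It was higher in B4KO at DD10 and near WT later (mean 0.54, lowest adjusted p = 0.0831, limma).

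Progenitor genes leaned up, mostly at DD10. Of 26 probes of the 16 listed genes, all of which were tested, 5 were higher and 1 was lower, against 6.1% and 13.1% of all probes, and the median was 0.38. Brightness-centred medians were 0.68, -0.02 and 0.23 at DD10, DD16 and DD23. Pax6, a master factor of eye development, was called by 2 of 6 probes, with 0.58, 0.22 and -0.28 in B4KO and -0.27, 0.18 and -0.30 in WT (mean 0.30, lowest adjusted p = 0.0258, limma). It did not pass relative to probes of similar brightness. Six3, which specifies the eye field, passed by 1 of 2 probes (mean 0.71), as did Nr2e1 (0.50), and Lhx2 by its single probe (0.38). The lower probe belonged to Zfp36l1 and holds a marked feature. Isl1KO minus WT, with the same WT arrays, had a median of 0.32 for this list.

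Genes of dividing cells gave a small number of calls. Of 50 probes of 29 cell cycle genes, 3 were higher, near the 6.1% of all probes, with a median of 0.28. Only 1 was lower, where 13.1% of all probes were. Pcna, the replication clamp, had 0.45 (SE 0.10) and Mki67 0.31 (adjusted p = 0.265, limma). Of 15 probes of listed histone genes 4 were higher and 0 lower (median 0.39), among them H2ax at 0.45 and H1f4 at 0.405, each read by 1 probe. Relative to probes of similar brightness the median of this list was 0.25.

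Genes with Rpl, Rps or related ribosomal names made up 14 of the 118 called rises, of 69 such genes with at least 2 tested probes. Of all 6539 genes 1.8% rose. These 14 and 69 were counted by name alone, so genes of other function with such a name can be among them. A narrower list of 51 ribosomal protein genes was bright, with a median signal of 6.39, and its differences were small and changed with day. Rpl18 had 5.87, 5.93 and 5.23 in B4KO and 5.31, 5.71 and 4.68 in WT (mean 0.44), higher in B4KO on all days and least at DD16. Over those 51 genes with 104 probes, 32 probes were higher and 1 lower, with a median of 0.31. Relative to probes of similar brightness the median was 0.16, with 4 higher and 2 lower, so most of the 32 calls were lost.

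Markers of amacrine, horizontal, glial and ganglion cells gave small counts of called probes, which stand beside 6.1% higher and 13.1% lower over all probes. Gad1, the GABA-synthesizing enzyme of amacrine and horizontal cells, had -2.04, -1.82 and -2.07 in B4KO and -1.26, -1.10 and -1.32 in WT, with no overlap. Its 1 tested probe gave -0.75 (SE 0.07, adjusted p = 0.000374, limma). Of 3 untested probes of Gad1, the brightest had -4.01, -2.91 and -0.70 in B4KO and -4.73, -3.46 and 0.01 in WT, so it was higher in B4KO at DD10 and DD16 and lower at DD23. Among all 34 amacrine probes 2 were higher and 1 lower (median -0.05), and the 2 higher ones were those of Pax6. Of 15 horizontal cell probes 3 were higher, including both of Onecut1, and 1 was lower (median 0.09). Of 24 Mueller glia probes 3 were higher and 2 lower (median 0.01), and Dkk3 was the only called gene. Ganglion cell probes numbered 28, with 0 higher and 1 lower, and their brightness-centred medians were 0.43, -0.07 and -0.68 over the days.

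Lists for cells other than retina varied, with medians of 0.0 for forebrain and 0.04 for lens. The forebrain value averages over unlike days. Its brightness-centred medians were -1.11, -0.13 and 0.52 at DD10, DD16 and DD23, each from 1 array per line and without a test. Of the 11 forebrain probes 0 were higher and 1 lower. Of 6 probes for endothelium and blood cells 0 were higher and 3 lower (median -0.66), where 6.1% and 13.1% of all probes were. Csf1r, the receptor of microglia and macrophages, had -1.01, -0.79 and -0.60 in B4KO and -0.04, 0.07 and 0.13 in WT (mean -0.85, lowest adjusted p = 0.000463, limma). Its lines did not overlap and neither of its 2 probes was marked. Ptprc, the leukocyte antigen CD45, had -1.20 by 1 probe, while Cd68 of the same list had 0.13 and Kdr 0.21. Of 9 probes for pluripotent cells 0 were higher and 4 lower (median -0.40), 2 of them those of Tdgf1. Pou5f1 had -0.64 by a marked probe and Utf1 -1.21, while Nanog (-0.25) and Klf4 (0.08) did not pass.

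Probes of imprinted genes were balanced, with 5 of 52 higher and 5 lower (median -0.001), where 6.1% and 13.1% of all probes were. Of the 15 listed genes with 2 or more tested probes, 0 were called higher and 2 lower. Among all 6539 such genes 1.8% and 1.51% were. Kcnq1ot1, the long noncoding RNA of the Kcnq1 cluster, was called by 2 of 4 probes (mean -0.42), and Ube3a, a ubiquitin ligase, by 2 of 3 (mean -0.22). Each had 1 marked probe. Of the 35 panel genes chosen as retinal markers, 26 had a tested probe and 11 had 2 or more. Onecut1 and Pax6 were the 2 called higher, 0 were called lower, and Gad1 was the only single-probe gene that passed.

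Differences of 2-fold or more were also counted day by day, and a gene can be counted at several days, as Pkib was at all 3. These counts compare 1 array with 1 array and have no test, and the genes were picked after their values were seen. At DD10 every probe of 15 genes (0.229% of 6539) was at least 2-fold higher in B4KO relative to probes of similar brightness, and every probe of 36 genes (0.551%) at least 2-fold lower. At DD16 the numbers were 0 (0.0%) and 6 (0.0918%), and at DD23 6 (0.0918%) and 15 (0.229%).

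Of the 15 genes higher at DD10, 5 are given here. Atoh7, which gives progenitors the competence to form ganglion cells, had a signal of 4.48 in B4KO, 3.41 in Isl1KO and 2.37 in WT at DD10. Tbx3 and Hmx1, factors of the optic vesicle, had 2.71 and 3.99 in B4KO, 2.10 and 3.66 in Isl1KO, and 1.12 and 2.60 in WT. Six3 had 0.51 in B4KO, 0.25 in Isl1KO and -0.88 in WT. For these 4 genes both knockouts lay above the single WT array of that day. Isl1, the gene targeted in Isl1KO, was different on average over its 2 probes, with 0.48 in B4KO, -1.06 in Isl1KO and -0.92 in WT. The probes parted for Isl1KO, with -0.88 against -1.25 in WT by 1 probe and -1.24 against -0.60 by the other. B4KO lay above WT by both, at 0.04 and 0.92. By DD16 Atoh7 stood at 4.02 in B4KO, 4.14 in Isl1KO and 3.97 in WT.

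Of the 36 genes lower at DD10, 4 are given here. Krt8, a keratin of simple epithelia, had -2.13 in B4KO, -2.17 in Isl1KO and 0.35 in WT. Rspo3, an activator of Wnt signalling, had 2.04 in B4KO, 2.25 in Isl1KO and 3.29 in WT, and the ligand Wnt7b 1.43, 1.75 and 2.65 in the same order. The nuclear factor Nfia had -1.08 in B4KO, -0.63 in Isl1KO and 0.36 in WT. WT at DD10 stood above both knockouts for all 4.

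Of the 6 genes higher at DD23, 5 are given here. Fbln5, an elastic fibre protein, had 0.35 in B4KO, -1.19 in Isl1KO and -1.15 in WT. Folr1, a folate receptor, had 0.67 in B4KO, -0.62 in Isl1KO and -0.72 in WT, and Ttr, the thyroxine carrier of choroid plexus and pigment epithelium, 4.14 in B4KO, 2.90 in Isl1KO and 2.74 in WT. Krt8 had -1.38 in B4KO, -2.77 in Isl1KO and -2.79 in WT. B4KO lay above both other lines for these 4. Cdkn1a, the p21 inhibitor of the cell cycle, had 0.46 in B4KO, -0.04 in Isl1KO and -1.14 in WT.

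Among the lower genes at DD23, Meg3 had the widest gap. This imprinted noncoding RNA had -1.71, -0.99 and -2.89 in B4KO, 2.52, 4.35 and 5.22 in Isl1KO, and -3.73, -0.84 and 0.68 in WT at DD10, DD16 and DD23. B4KO was thus above WT at DD10, near it at DD16 and below it at DD23. Col1a1, a collagen of mesenchyme, had -1.44 in B4KO, -1.47 in Isl1KO and 0.13 in WT at DD23, and Tac1, the substance P precursor, -2.5 in B4KO, -1.23 in Isl1KO and -0.98 in WT.

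A model with a further term for DD23 asked whether the difference at that day stood apart from that of the 2 earlier days. It called 0 of 28634 probes (0.0%) in limma, with 1671 (5.84%) at an unadjusted p below 0.05 and a lowest adjusted p of 0.597. The term was -4.05 (SE 0.50, adjusted p = 0.647, limma) and -4.95 for the probes of Meg3, and 2.26 for a probe of Krt8 (adjusted p = 0.883, limma). With 2 residual degrees of freedom, large single-day values did not pass.

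**Figure D5:**
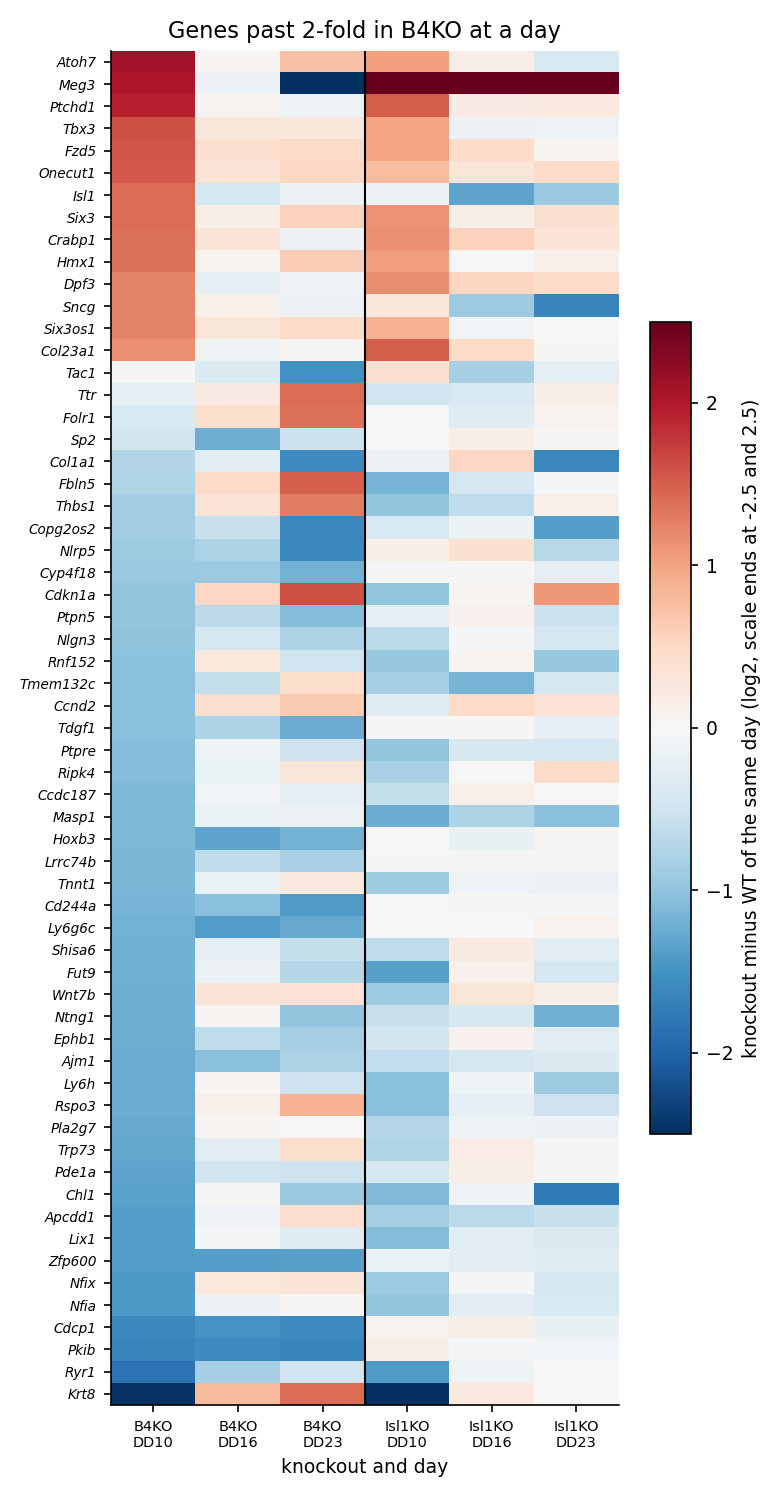
Knockout minus WT of the same day (log2, colour scale ending at -2.5 and 2.5) for named genes whose probes were all past 2-fold in B4KO at 1 or more days, with the 3 days of B4KO left of the line and the 3 days of Isl1KO right of it. Atoh7, Tbx3 and Six3 are red at DD10 in both knockouts, Krt8 is blue at DD10 in both and red at DD23 in B4KO, and Pkib and Cdcp1 are blue on all 3 days of B4KO and pale in Isl1KO.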

How the data were processed

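Per the file headers, each array was scanned in 1 colour (Cy3) and read out by Feature Extraction 12.0.3.1 of Agilent. The deposited processed intensity is background-subtracted and detrended, with no normalization between arrays, per the file headers. Raw mean and background intensity and 0 or 1 flags (other) stand beside it. The authors' deposited value table is that intensity divided by a constant per array, a linear signal, and served as an alternative. Probe positions are those of the array design, mm9.

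Spots of a probe were averaged and scaled to the array's 75th percentile. limma 3.58.1 in R 4.3.3 fitted line and day over all 9 arrays (4 residual degrees of freedom), with Benjamini-Hochberg adjustment over 28634 probes at 0.05; the spread is the departure from additivity. Day pairs the lines through the labels. Named genes were the 12 called genes each way whose weakest probe was furthest from 0, the retinal panel, and up to 2 extremes of each of 37 lists, besides Bhlhe23. Single-day genes, chromosome 19 and probe features were added after values were seen. Members and lists were chosen with earlier results of these data known. On simulated data, 71 of 100 changes of 1 and 96 of 100 of 2 (log2) were recovered, with 12 false calls over 28634 probes. The simulated noise was independent between probes and held no shift by slide, brightness or probe sequence. The 12 therefore do not measure false calls from such shifts. The number of arrays limits precision. Figures and tables used Python 3.11.15. Some named genes are not reported here.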

Additional observations from a re-analysis of the deposited data

Results flagged for a closer look

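Outside the tested set, 15 probes were well above background on all 3 B4KO arrays and on none of the WT arrays, a signal in data that the comparisons leave out (0.0265% of 56503 probes). Their median signal was -4.22, near the background, 1 of them held a C tract, and no gene had 2 of them. The opposite pattern, signal on all 3 WT arrays and on no B4KO array, was seen for 225 probes (0.398%), of which 38 held a C tract or a 2-base repeat and none shared a gene. The part of the slide in either count was not tested.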

How the results depend on the processing

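None of the 24 leading genes changed sign in any alternative. The balance of called genes did turn, to 36 higher and 110 lower relative to probes of similar brightness and to 22 and 67 with the 6 arrays alone. The 118 genes called higher became 211 with quantile normalization, 320 with normexp background correction, 229 with an intensity trend, 78 with probes above background on at least 3 of 6 arrays, 36 relative to probes of similar brightness and 22 with the 6 arrays alone. Probes higher were 3347 with normexp, 873 relative to similar brightness and 544 with the 6 arrays. Without C tract and repeat probes, 64 genes were higher and 40 lower (1145 and 2287 probes). Without shared word probes too, 49 and 23 (1006 and 1973 probes), and 47 and 21 where the 2 probes must not overlap. By the brightest probe alone, 1393 and 3121 genes passed. With no replicate block, that is, without day as the pairing term, 0 genes were higher and 21 lower (8 and 1522 probes). Leaving out 1 array, or 1 day in all lines, gave 3 to 94 genes higher, 54 to 145 lower, 160 to 1205 probes higher and 2550 to 3648 lower. B4KO minus Isl1KO gave 230 genes higher with normexp (2797 probes), 42 relative to similar brightness (934 probes), 60 with at least 3 of 6 arrays and 143 with the trend. Of the 12 leading rises and 12 leading falls, 3 and 10 were called without any 1 array, and 7 and 4 without marked probes. The 7 genes called in every alternative other than the fit without day and the brightest-probe rule were all lower: 4932412D23Rik, Csf1r, Ly6g6c, Nav2, Rufy2, Tex44 and Zfp600. The DD23 term also called 0 in all 8 alternatives, which says little, since its model had 2 residual degrees of freedom. Dim probes (median signal -3.05 in the dimmest 5727) limit what can be read from small differences.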

Other observations

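Nav2, a guidance-related neuron navigator, was lower in B4KO by 3 of 5 probes, with a mean of -0.41, and Rufy2, an endosomal adaptor, by 2 of 3, with a mean of -0.76. Rufy2 had -1.23, -1.08 and -1.08 in B4KO and -0.43, -0.36 and -0.30 in WT at DD10, DD16 and DD23, with no overlap. Rarb, a retinoic acid receptor and itself a target of retinoic acid, passed by 1 of 2 probes, with a mean of 0.49 and a lowest adjusted p = 0.00275 in limma, while Stra6, the retinol transporter, had -1.28 by a marked probe. Wipf3, an actin regulator, was called lower, and its probes had -1.68 with a repeat, -0.83 with a C tract and -0.45 with neither.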
